A study of Mus musculus with 17 samples.

Results

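Interferon-stimulated genes were followed in RNA sequencing data from mouse pancreatic stellate cells, the resident cells of the pancreas that turn into fibroblasts around tumours. The set holds 41 genes, taken as a list of symbols and matched to the 35896 gene identifiers of the count files, and all 41 were found. Each of them was among the 13923 genes that passed the filter on low counts. Type I interferons bind a receptor pair, IFNAR1 and IFNAR2, whose kinases JAK1 and TYK2 phosphorylate STAT proteins. Phosphorylated STAT2 acts with IRF9 in the complex ISGF3, which binds a DNA element named the interferon-stimulated response element (ISRE). Many fibroblast types keep a low tonic level of these genes without infection, and the products include RNA sensors, RNA-cleaving enzymes, blockers of viral entry and budding, the ubiquitin-like modifier ISG15 and the chemokine CXCL10.

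The 17 libraries came from wild-type C57BL/6J cells of the lines PSC4 (passages 23 to 25) and PSC5 (passages 27 and 28), all grown in Matrigel, a basement membrane gel, and collected on day 4. Control medium was used for 5 libraries, and the other groups had 4 libraries each. They were control medium with TGF-beta at 20 ng/mL, medium conditioned by pancreatic tumour organoids (CM), and CM with 300 nM neratinib, a covalent inhibitor of the ERBB receptor kinases. The labels do not say whether libraries of a group came from separate animals or cultures, so p-values measure the spread between these libraries of 2 lines. Neratinib in control medium was not analysed here. Each CM library carried a code, T6 or T8, whose meaning the labels do not give. The code went with the replicate number and the passage in all 8 libraries with CM, so these cannot be told apart.

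Library totals lay between 22168953 and 29421447 counts, and the 4 neratinib libraries held between 22168953 and 25967713. On the third principal component of all tested genes (14.9% of the variance), the 3 libraries labelled PSC4 replicate 1 lay between 1.76 and 37.0, near the 8 PSC5 libraries (-3.60 to 36.2) and apart from the other 6 PSC4 libraries (-56.8 to -19.7). Results are therefore also given without those 3 libraries. All 10 stellate cell and fibroblast markers were present in every library. The summed level of 9 leukocyte markers was 14.3 to 17.7 CPM (counts scaled to equal library size) in control libraries, 26.9 to 53.1 CPM with CM and 35.5 to 67.9 CPM with neratinib. Cd14 made up most of it, with means of 12.9, 37.4 and 49.4 CPM in these groups. Ptprc had at most 1 count in a library, and Adgre1 and Cd3e had none. The 4 markers of plasmacytoid dendritic cells, the professional interferon makers, summed to at most 0.946 CPM in a library. The summed level of 12 epithelial markers was 15.9 to 23.6 CPM in control libraries, 20.4 to 179.7 CPM with CM and 9.83 to 322 CPM with CM and neratinib. It was highest in the T6 libraries of both CM groups. The part of these markers in the results was not tested. In bulk RNA, fewer cells of a type and less RNA per cell cannot be told apart.

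The sequence upstream of the members was read first, because ISGF3 acts through the ISRE. RefSeq promoters (GRCm38.p6) were in the table for 31 of the 41 members. No entry was there for Mx1, Mx2, Oas2, Parp9, Parp14, Ifi27, Dhx58, Rtp4, Zbp1 and Usp18. In the 250 bases before a start site, the core of the ISRE occurred in 13 of the 31 members (41.9%) and in 936 of all 27025 genes in the table (3.46%). The letters searched were GAAA, any 2 bases and GAAA, on both strands, with overlapping matches counted. At least 2 matches occurred in 7 members and in 57 of all genes (0.211%). The letters TTCNNNGAA, the core of the gamma-activated site bound by STAT dimers, occurred in 5 of the 31 members (16.1%) and in 8.13% of all genes.

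The stretches around the matches are printed for 7 members whose falls with neratinib run from the largest to one of the smaller ones, each 5′ to 3′ along its gene, with the bases of the matches in capitals. A match that reads TTTC, 2 bases and TTTC lies on the opposite strand. All 7 stretches lie before the first exon of the RefSeq transcript.
Ifit3: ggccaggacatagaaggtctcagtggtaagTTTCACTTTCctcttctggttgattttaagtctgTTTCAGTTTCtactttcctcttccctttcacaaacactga
Ifit3b: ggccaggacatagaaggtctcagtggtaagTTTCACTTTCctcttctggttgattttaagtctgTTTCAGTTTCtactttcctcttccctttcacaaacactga
Oas3: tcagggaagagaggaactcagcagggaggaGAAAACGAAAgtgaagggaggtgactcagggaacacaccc
Cxcl10: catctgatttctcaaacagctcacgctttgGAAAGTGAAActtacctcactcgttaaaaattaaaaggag
Ifit1: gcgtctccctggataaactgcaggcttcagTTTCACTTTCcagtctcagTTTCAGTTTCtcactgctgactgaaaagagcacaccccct
Isg15: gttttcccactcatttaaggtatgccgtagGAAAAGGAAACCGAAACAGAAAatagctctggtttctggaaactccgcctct
Bst2: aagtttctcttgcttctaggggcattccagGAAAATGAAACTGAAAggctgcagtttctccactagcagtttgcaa

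On GRCm38 the Ifit3 stretch is chr19:34583343-34583446 and the Ifit3b stretch is chr19:34607739-34607842, both on the plus strand. The 104 bases printed for Ifit3 and Ifit3b were the same at every position, although they lie at different distances from the start sites (-186 to -83 and -218 to -115). The Ifit1 stretch is chr19:34640755-34640843 on the plus strand. Those on the minus strand are chr5:120777695-120777764 for Oas3, chr5:92349063-92349132 for Cxcl10, chr4:156200845-156200926 for Isg15 and chr8:71537557-71537632 for Bst2. In Isg15, 3 matches overlap in a single run, and in Bst2 a pair overlaps. A match is a description of these letters and not a measured binding site.

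**Figure D1:**
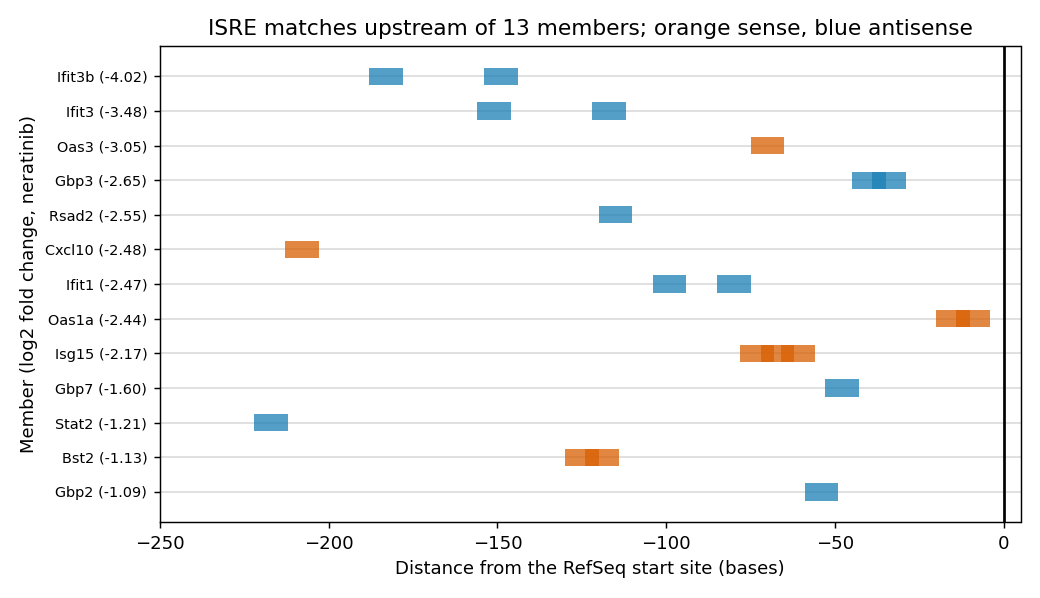
Positions of the ISRE matches upstream of the 13 members that hold one, as bases from the RefSeq start site (x axis), with members ordered from the largest fall with neratinib at the top (log2 fold change in brackets). Orange blocks read along the gene and blue blocks on the opposite strand. Darker overlaps mark matches that share bases, as in Isg15, Oas1a, Gbp3 and Bst2.

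CM with neratinib was compared with CM to ask how levels in tumour medium differed with the drug. No group here had neratinib in control medium. A changed response to CM and a drug effect on the level without CM therefore cannot be told apart. CM with neratinib lowered 40 of the 41 members and raised none, at an adjusted p under 0.05 in edgeR's quasi-likelihood test. Over all tested genes, 9.63% were called lower and 10.8% higher. The median log2 fold change was -1.82 over the members and 0.00 over all genes, and 37 members fell by more than 2-fold. In 35 members the highest neratinib library was below the lowest CM library, as it was in 9.14% of all genes. The members that overlapped were Oas1a, Oas2, Oas3, Xaf1, Zbp1 and Ifi27, and Ifi27 was the only member not called. Without the 3 libraries labelled PSC4 replicate 1, 39 members were called lower and the median was -1.36, with Zbp1 no longer called. In that run 6.73% of all genes were called lower.

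**Figure D2:**
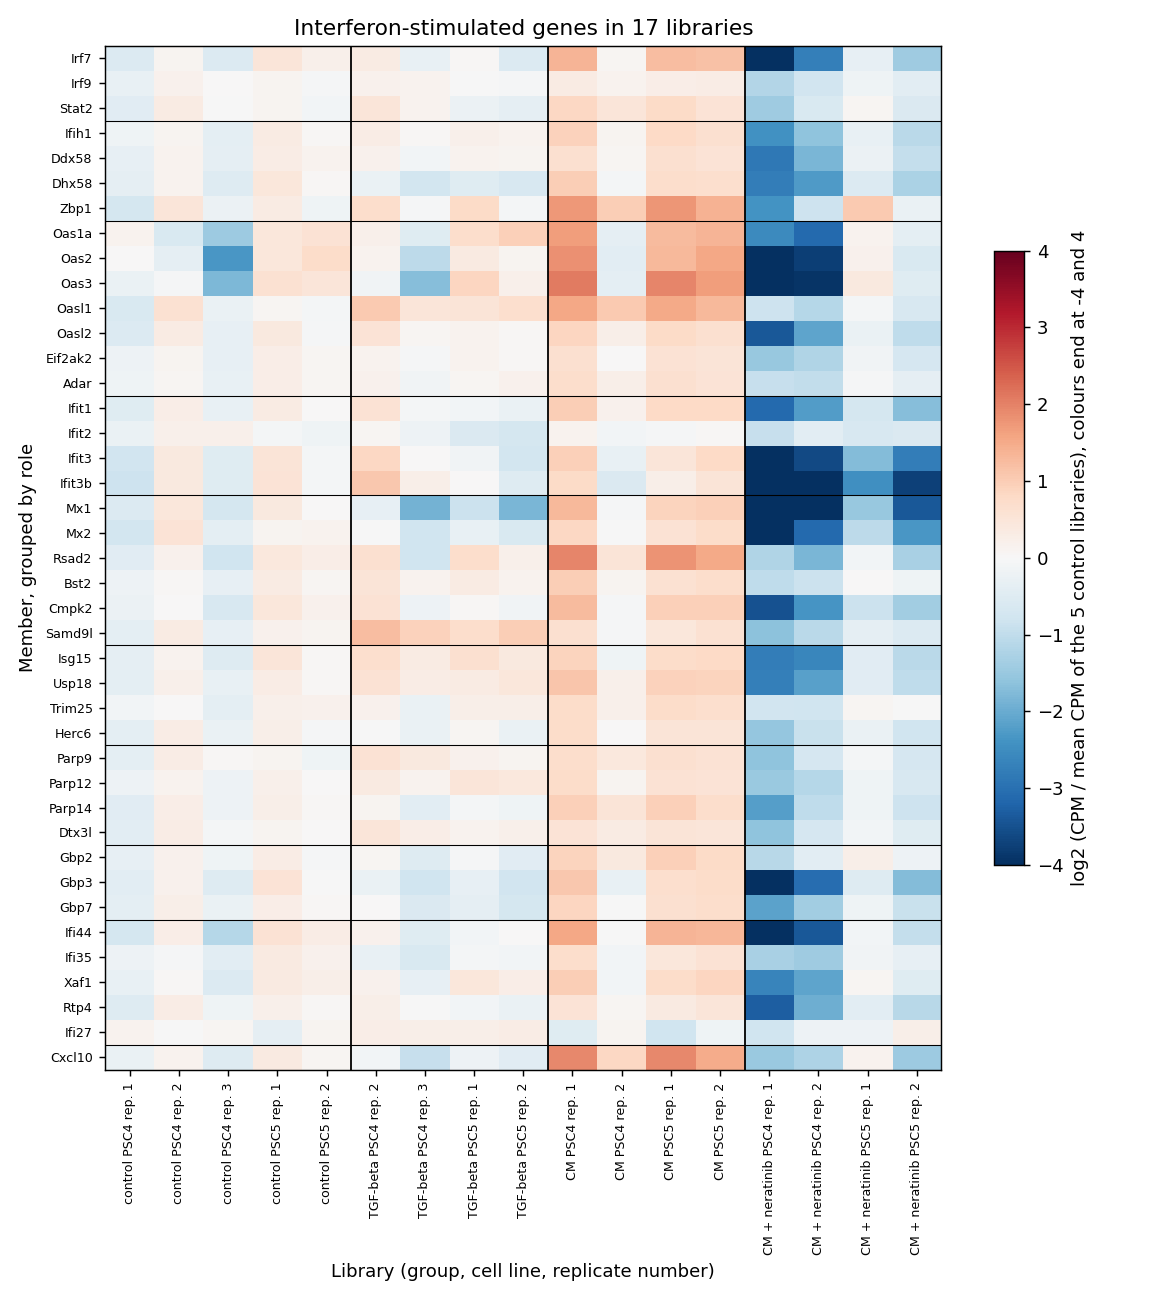
Each cell gives a member's log2 ratio of CPM in 1 library to the mean of the 5 control libraries (red higher, blue lower, colours ending at -4 and 4), with members in rows by role and libraries in columns by group. Both PSC4 neratinib columns are blue for every member, PSC5 replicate 2 is blue for all but Ifi27, and PSC5 replicate 1 is pale (median -0.15) and red for some members, such as Zbp1 and Oas3. CM PSC4 replicate 2 is paler than the other 3 CM libraries.

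Among the factors, Irf7 (chr7:141262706-141266481), which drives the amplifying phase of interferon production, stood in the CM libraries at 251, 105, 234 and 224 CPM, in the order PSC4 replicate 1, PSC4 replicate 2, PSC5 replicate 1 and PSC5 replicate 2. With neratinib it stood at 5.24, 14.7, 78.3 and 36.5 CPM in the same order. Every neratinib library was below every CM library, and the PSC4 libraries were the lowest. The log2 fold change was -2.82 ± 0.53 (SE, adjusted p = 0.00267). Stat2, an ISGF3 subunit, was at 323, 256, 308 and 265 CPM with CM and at 68.4, 119, 191 and 121 CPM with neratinib, a log2 fold change of -1.21 ± 0.26 (adjusted p = 0.00568). The groups did not overlap. Irf9, the DNA-binding subunit, went from 121, 106, 118 and 120 CPM to 43.5, 57.8, 86.9 and 72.6 CPM (-0.85 ± 0.15, adjusted p = 0.00207). For Irf9 too every neratinib library was below every CM library. Irf7 overlaps Phrf1 on the opposite strand and Irf9 overlaps Rnf31 on its own strand, so some reads may be shared.

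The IFIT proteins bind viral RNA ends and block translation. All 4 members of this family fell, with a median log2 fold change of -2.98. Ifit3b (chr19:34607970-34613401) stood at 58.2, 23, 40.4 and 49.6 CPM with CM and at 0.468, 1.60, 6.31 and 2.57 CPM with neratinib. That was the largest change in the set, 16.2-fold lower (log2 fold change -4.02 ± 0.58, adjusted p = 0.000525). Its neighbour Ifit3 (chr19:34583531-34588731) went from 206, 85.9, 147 and 184 CPM to 3.19, 8.68, 31.9 and 15.6 CPM (-3.48 ± 0.56, adjusted p = 0.00101). In both genes the PSC4 pair reached the lowest values and PSC5 replicate 1 kept the most. The lowest neratinib library of Ifit3b rested on 11 counts. Ifit3 shares 61.8% of its 31-base words with other genes, all with Ifit3b, so reads could be split between the 2 genes by the authors' estimation and their separate values are uncertain. Ifit1 fell by 2.47 on the log2 scale. Ifit2, which lies in the same cluster and shares no 31-base word with another gene, fell by only 0.63.

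The MX proteins are dynamin-like GTPases that trap viral nucleocapsids. As background, C57BL/6 mice carry a defective Mx1 allele, and the annotation lists Mx2 as a polymorphic pseudogene, so these values are transcript levels. Mx1 (chr16:97447035-97462907) stood at 28.1, 11.2, 21.2 and 22.2 CPM with CM and at 0.426, 0.700, 3.98 and 1.10 CPM with neratinib, 14.2-fold lower (-3.83 ± 0.58, adjusted p = 0.000708). Mx2 (chr16:97535308-97560900) went from 39.3, 21.8, 33.0 and 37.1 CPM to 0.724, 2.57, 10.9 and 4.44 CPM (-2.94 ± 0.50, adjusted p = 0.00148). Neither gene had a neratinib library within the CM range. The lowest neratinib library rested on 10 counts for Mx1 and on 17 for Mx2.

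The enzymes that act on double-stranded RNA were all lower, 7 of 7, with a median of -2.06. The OAS proteins make the second messenger that activates RNase L. Oas3 (chr5:120753098-120777661) stood at 39.5, 7.23, 36.7 and 30.1 CPM with CM and at 0.468, 0.623, 12.2 and 6.74 CPM with neratinib (-3.05 ± 0.70, adjusted p = 0.00762). Oas2 (chr5:120730333-120749853) went from 190, 39.6, 132 and 154 CPM to 3.19, 3.89, 60.4 and 34.9 CPM (-2.87 ± 0.71, adjusted p = 0.0117). The groups overlapped in both genes through the low value of CM PSC4 replicate 2, and within each pair of the same line and number the neratinib library was lower. The lowest neratinib library of Oas3 rested on 11 counts. Oas1a fell by 2.44, and 68.8% of its 31-base words are shared, nearly all with Oas1g, so its value is uncertain. The OAS-like genes Oasl1 (-1.98) and Oasl2 (-2.06), the translation-blocking kinase gene Eif2ak2 (-1.30) and the RNA-editing enzyme gene Adar (-1.10) fell too. Oasl1 was left at 6.13, 4.90, 10.3 and 6.96 CPM. When only the CM and neratinib libraries entered the model, Oas1a, Oas2 and Oas3 were no longer called, nor were Ifi44, Xaf1, Zbp1 and Gbp3, and 33 members remained called. Over all genes that model called 602, against 2850 with all 17 libraries.

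The sensors were lower in 4 of 4 cases. Ifih1 (encoding MDA5, -1.88), Ddx58 (RIG-I, -1.80) and Dhx58 (LGP2, -2.19), which act on viral RNA, fell. Zbp1, a sensor of Z-form nucleic acid, stood at 154, 92.7, 159 and 123 CPM with CM and at 8.85, 25.9, 95.5 and 38.6 CPM with neratinib. Its groups overlapped through PSC5 replicate 1 (-1.79 ± 0.47, adjusted p = 0.0171), and the call was also lost without the neratinib library of PSC5 replicate 2.

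Among the other antiviral effectors, Rsad2, which encodes viperin, a maker of a chain-terminating nucleotide, fell by 2.55 to 6.73, 4.36, 14.4 and 6.32 CPM in the 4 neratinib libraries. Its neighbour Cmpk2, a mitochondrial nucleotide kinase, fell by 2.69. Bst2, the tether that holds budding virions, fell by 1.13. Samd9l, a restriction factor of poxviruses, fell by 1.30, from 151, 92.8, 133 and 148 CPM to 30.8, 45.1, 75.8 and 65.9 CPM. None of these genes had overlapping groups. The modifier Isg15 (chr4:156199424-156200818) stood at 253, 122, 227 and 240 CPM with CM and at 20.3, 22.6, 101 and 64.7 CPM with neratinib (-2.17 ± 0.36, adjusted p = 0.00117). Usp18 (chr6:121245906-121270917), the protease that removes ISG15 and also restrains the interferon receptor, went from 145, 77.0, 127 and 125 CPM to 10.2, 14.9, 49.0 and 33.5 CPM (-2.25 ± 0.33, adjusted p = 0.000543). In both genes all 4 neratinib libraries were below all CM libraries. The ISG15 ligase gene Herc6 (-1.30) and the RIG-I ubiquitin ligase gene Trim25 (-0.96) fell less.

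The PARP group, ADP-ribosyltransferases and the partner ligase Dtx3l, fell in 4 of 4 cases (Parp9 -1.26, Parp12 -1.33, Parp14 -1.73 and Dtx3l -1.11). Parp9 and Dtx3l share a start region on opposite strands, and whether strand was used in the counting was not given, so their reads there cannot be separated. Adar and Cxcl10 overlap Chrnb2 and Art3, which also lie on the opposite strand. Herc6 and Rtp4 overlap Gm45193 and Gm45338 on their own strand and share 12.7% and 12.5% of their 31-base words with them. The guanylate-binding proteins, which attack the vacuoles of intracellular microbes, were lower as well (Gbp2 -1.09, Gbp3 -2.65 and Gbp7 -1.60). Ifi44 (chr3:151730922-151749960), a cytoplasmic protein gene, stood at 199, 66.6, 173 and 169 CPM with CM and at 3.32, 6.50, 62.3 and 35.2 CPM with neratinib (-2.87 ± 0.60, adjusted p = 0.00482). The highest of its neratinib libraries was just under the lowest of its CM libraries. Ifi35 (-1.20), which pairs with NMI, the pro-apoptotic Xaf1 (-1.79) and Rtp4 (-1.82), a chaperone of membrane receptors, fell.

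Cxcl10 (chr5:92346638-92348889), the chemokine that draws T cells through CXCR3, was the secreted member. It stood at 194, 89.97, 193 and 142 CPM with CM and at 18.3, 21.4, 56.3 and 18.4 CPM with neratinib. All neratinib values were below all CM values, and PSC5 replicate 1 stood above the other 3. The log2 fold change was -2.48 ± 0.33 (adjusted p = 0.00034).

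Ifi27, a mitochondrial protein gene, stood at 80.8, 122, 66.0 and 102 CPM with CM and at 65.2, 99.0, 99.8 and 133 CPM with neratinib. The PSC4 pairs went down and the PSC5 pairs went up, and the log2 fold change was 0.10 ± 0.20 (adjusted p = 0.765). Ifi27 was also among the members with the highest level per length in control medium, at 77.8 CPM per kilobase of exon, behind Bst2 (286) and Isg15 (182). The lowest levels per length there were those of Oas3 (1.33) and Mx1 (3.03). Across the 41 members, the log2 fold change with neratinib and the log2 mean CPM in control went together with r = 0.50 and rho = 0.47, a description across genes of the same libraries.

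**Figure D3:**
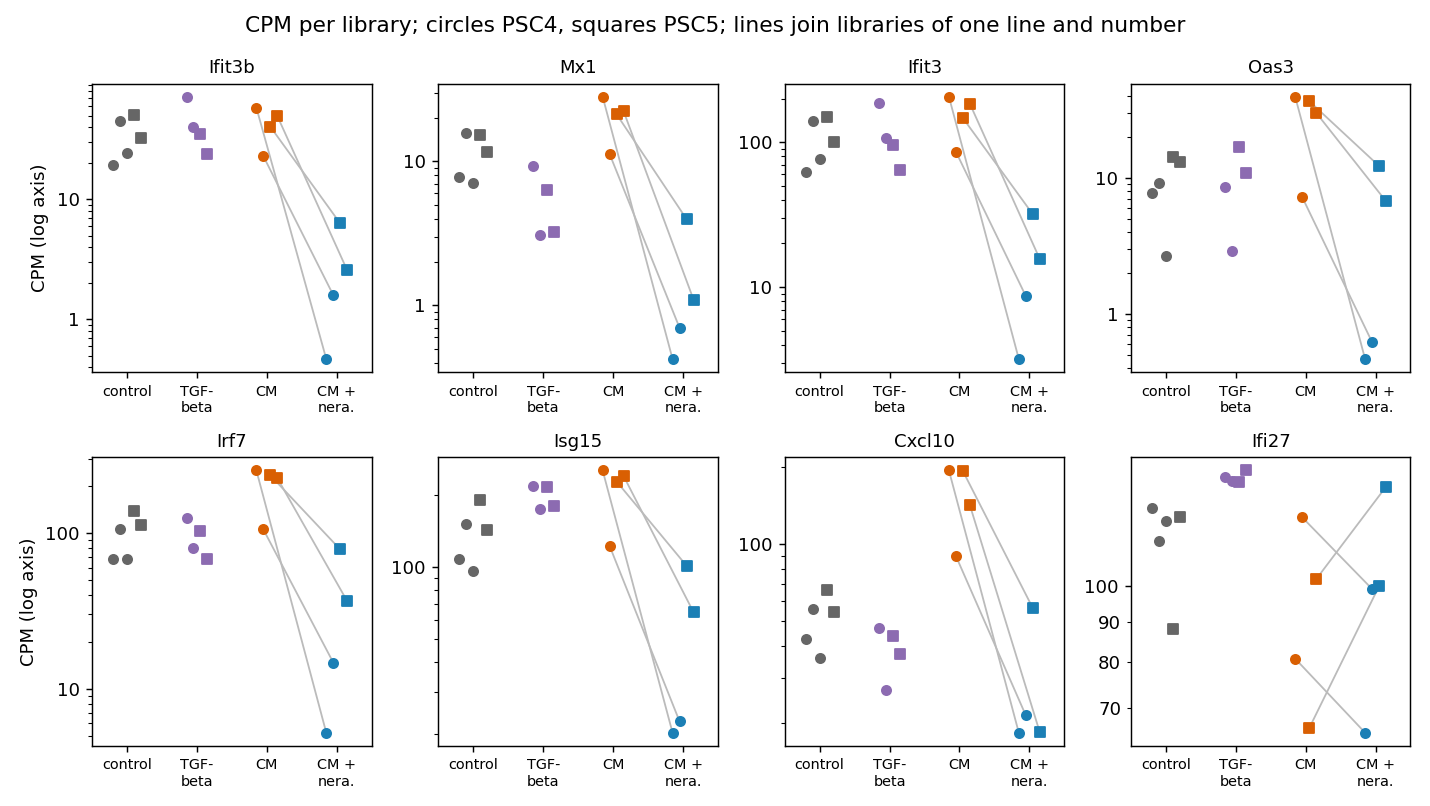
CPM on a log axis in every library for 8 members, with circles for PSC4, squares for PSC5 and grey lines joining the CM and neratinib libraries of the same line and number. In 7 of the genes every line descends, and the PSC4 libraries end lowest or near lowest. Ifi27 descends in PSC4 and rises in PSC5.

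Within pairs of the same line and number, the neratinib library was lower for 41 of 41 members in PSC4 replicate 1, 41 in PSC4 replicate 2, 40 in PSC5 replicate 1 and 40 in PSC5 replicate 2. The median member was left at 9.44% of its CM level in PSC4 replicate 1, at 24.9% in PSC4 replicate 2, at 49.4% in PSC5 replicate 1 and at 31.5% in PSC5 replicate 2. PSC4 replicate 1 had the largest fall for all 41 members, and PSC5 replicate 1 the smallest fall, or a rise, for 40. Both of those pairs had the code T8. The counts by pair were made for the members only, so no share of all genes stands beside them. On the second principal component of all tested genes, the neratinib library of PSC4 replicate 1 lay at -84.1. The neratinib libraries of PSC4 replicate 2, PSC5 replicate 1 and PSC5 replicate 2 lay at -17.2, -25.6 and -46.9. The part of this in the order of the pairs was not tested.

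Whether the neratinib effect differed between the lines was tested as an interaction. No member was called by edgeR, and no gene of all those tested (0%), with an adjusted p of 1.00 for each member. At an unadjusted p under 0.05 there were 25 of 41 members and 237 of 13923 genes. The estimate was lower in PSC4 for all 41 members, with a median of -2.80 in PSC4 and -1.29 in PSC5. The median difference was 1.16 over the members and -0.002 over all genes. Oas3 had the largest difference (-5.40 ± 0.93 in PSC4 and -1.81 ± 0.73 in PSC5, unadjusted p = 0.00908), and Ifit2 had the smallest (-0.66 ± 0.18 and -0.61 ± 0.18). When the 3 libraries near PSC5 were moved to that line, 1 member passed the unadjusted p, the median difference was 0.11 and it was above 0 for 22 members, so the difference between the lines depended on how those 3 libraries were assigned.

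**Figure D4:**
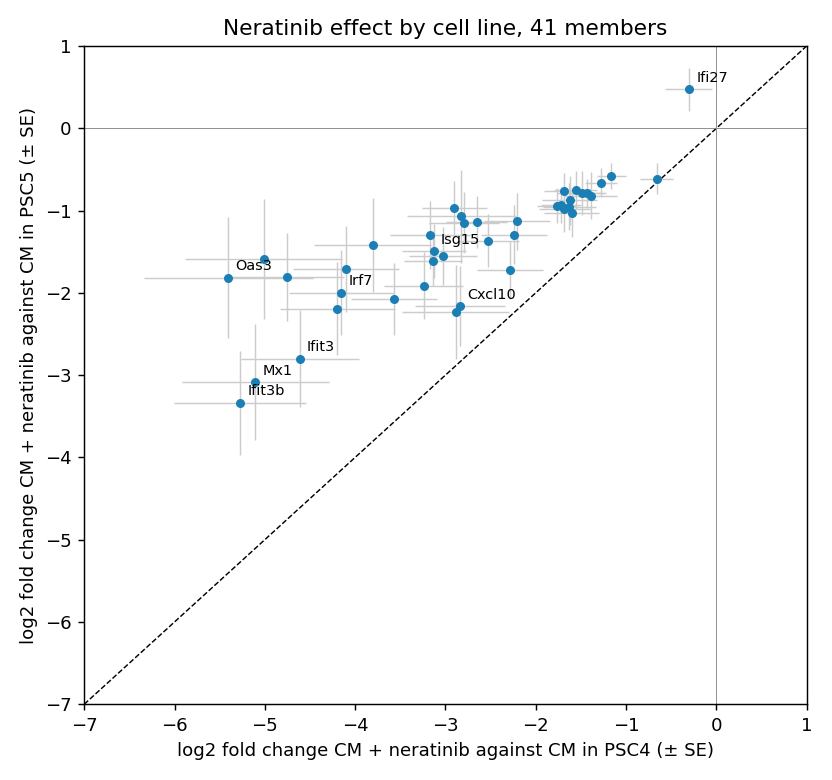
Log2 fold change of CM with neratinib against CM in PSC4 (x axis) and PSC5 (y axis) for the 41 members, with bars of 1 standard error and a dashed line of equal change. Every point lies above the line, and none of the differences passed the adjusted test.

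CM was compared with control medium to ask what the tumour organoid medium did by itself. It raised 8 of the 41 members and lowered none, where 7.05% of all genes were called higher and 7.14% lower. The median log2 fold change was 0.60 over the members and -0.00 over all genes, and 40 of 41 estimates were above 0, Ifi27 being the exception (-0.30). The 8 were Cxcl10, Rsad2, Zbp1, Oasl1, Gbp2, Bst2, Trim25 and Adar. Without the 3 libraries labelled PSC4 replicate 1 there were 7 calls, 6 of them among the 8, and the median was 0.39. The count was 3 without CM PSC4 replicate 1 alone, 4 without CM PSC5 replicate 1 and 4 without control PSC5 replicate 2. It was 22 with only the 2 groups in the model and 13 with DESeq2. Over all genes, 1976 were called with all 17 libraries and 2543 without the 3 labelled PSC4 replicate 1. The single omissions gave 1379, 801 and 1219 genes, in the order above. The 2-group model gave 2764 and DESeq2 gave 2695. Oasl1, Rsad2 and Cxcl10 were called under every alternative run.

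Cxcl10 stood at 42.5, 56.0 and 35.8 CPM in the PSC4 controls and at 66.0 and 54.3 CPM in the PSC5 controls, and its lowest CM value was 89.97 CPM. The change was 2.98-fold (log2 1.58 ± 0.30, adjusted p = 0.00375), with no overlap. Rsad2 was at 11.2, 17.5, 8.95, 20.9 and 18.7 CPM in control and at 59.8, 22.1, 54.0 and 43.9 CPM with CM (1.52 ± 0.34, adjusted p = 0.00946). Zbp1 was at 28.5, 65.3, 39.1, 57.7 and 41.5 CPM in control, below all its CM values (1.46 ± 0.43, adjusted p = 0.0371), and Oasl1 was at 7.12, 16.4, 8.99, 11.3 and 10.3 CPM in control and at 31.6, 22.3, 30.6 and 26.4 CPM with CM (1.34 ± 0.23, adjusted p = 0.00208). CM PSC4 replicate 2 was the lowest CM library in each of these 4 genes. The smaller rises were 0.74 for Gbp2, 0.63 for Bst2, 0.57 for Trim25 and 0.53 for Adar, on the log2 scale. With a replicate block, Bst2 was not called (adjusted p = 0.054), while Stat2 (0.73, adjusted p = 0.0357), Parp9 (0.66, adjusted p = 0.0325) and Parp14 (0.80, adjusted p = 0.0343) were.

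Stat2 was at 133, 230, 181, 199 and 171 CPM in control, below all its CM values, but was not called without the block (0.65 ± 0.24, adjusted p = 0.0865). Several members with larger estimates were not called. In Oas3, Oas2, Ifi44 and Irf7 among them, CM PSC4 replicate 2 lay within the control range. In Parp14, also not called, that library was at 135 CPM, above the highest control library at 113 CPM. Oas3 stood at 7.79, 9.19, 2.68, 14.3 and 13.1 CPM in control, and of its CM libraries only PSC4 replicate 2 lay inside that range (1.59 ± 0.59, adjusted p = 0.0879). The same library was inside the control range for Oas2 (54.0, 41.2, 10.6, 73.2 and 87.9 CPM in control, 1.34 ± 0.60, adjusted p = 0.157), for Ifi44 (42.1, 82.0, 30.7, 101 and 83.7 CPM, 1.14 ± 0.51, adjusted p = 0.155) and for Irf7 (67.9, 106, 68.2, 139 and 113 CPM, 1.01 ± 0.45, adjusted p = 0.157). Of the 41 members, 39, 37 and 38 exceeded the control range in CM PSC4 replicate 1, PSC5 replicate 1 and PSC5 replicate 2, but 10 did in PSC4 replicate 2. The same count was not made over all genes. CM PSC4 replicate 2 had the highest epithelial marker sum of the CM group, 179.7 CPM, followed by PSC5 replicate 2 with 150.1 CPM, and the part of this in the result was not tested.

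Ifit3b, Mx1 and Ifit3, the 3 members with the largest falls under neratinib, were not called in CM against control. Ifit3b stood at 19.3, 45.3, 24.4, 50.2 and 32.8 CPM in control, a range its CM values overlapped (0.30 ± 0.46, adjusted p = 0.704). The estimate was -0.053 without the 3 libraries labelled PSC4 replicate 1 and -0.012 without the CM library of that label alone. Ifit3 was at 62.0, 140, 76.1, 149 and 99.9 CPM in control (0.54 ± 0.47, adjusted p = 0.481), Mx1 at 7.83, 15.8, 7.12, 15.2 and 11.5 CPM (0.82 ± 0.47, adjusted p = 0.267) and Mx2, which also fell steeply with neratinib, at 13.3, 32.5, 16.8, 24.1 and 24.7 CPM (0.51 ± 0.42, adjusted p = 0.463). Isg15 was at 108, 151, 96.2, 190 and 142 CPM in control (0.57 ± 0.32, adjusted p = 0.257), Usp18 at 52.0, 78.1, 54.8, 82.8 and 70.1 CPM (0.77 ± 0.29, adjusted p = 0.0904) and Irf9 at 79.7, 109, 97.8, 105 and 94.5 CPM (0.24 ± 0.14, adjusted p = 0.281). The comparisons of CM with control and of neratinib with CM share the CM libraries, and both share libraries with CM with neratinib against control, so these values are set side by side without a measure of their relation.

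Whether members with CM and neratinib were back at the level of control medium or under it was read from the comparison of these 2 groups. Of the 41 members, 35 were lower than in control and none was higher, where 20.9% of all genes were called lower and 22.2% higher. The median was -1.06 (0.00 over all genes) and all 41 estimates were below 0. Only 10 members had every neratinib library under every control library (Mx1, Mx2, Ifit1, Ifit2, Ifit3, Ifit3b, Usp18, Dhx58, Cmpk2 and Gbp3), as did 15.3% of all genes. Without the libraries labelled PSC4 replicate 1, 31 members were lower and the median was -0.90, where 19.7% of all genes were called lower. By library, 41 and 40 members were below the control range in PSC4 replicates 1 and 2, 30 in PSC5 replicate 2 and 10 in PSC5 replicate 1. This count by library was made for the members only, so no share of all genes stands beside it.

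The largest differences from control were again those of Ifit3b (13.2-fold lower, -3.72 ± 0.56, adjusted p = 0.000172), Mx1 (8.04-fold lower, -3.01 ± 0.56, adjusted p = 0.000744), Ifit3 (-2.94 ± 0.54, adjusted p = 0.000662) and Mx2 (-2.43 ± 0.48, adjusted p = 0.00122). The highest neratinib library of Ifit3b, PSC5 replicate 1 at 6.31 CPM, was under the lowest control library at 19.3 CPM. Among the factors, Irf7 (-1.81 ± 0.50, adjusted p = 0.00936) and Irf9 (-0.61 ± 0.15, adjusted p = 0.0041) were lower than in control, while Stat2 (-0.55 ± 0.25, adjusted p = 0.0864) was not called. Isg15 (-1.61 ± 0.34, adjusted p = 0.00186) and Usp18 (-1.48 ± 0.31, adjusted p = 0.00179) were lower. Cxcl10 was lower too (-0.90 ± 0.31, adjusted p = 0.0278). That call was lost without any 1 of the neratinib libraries PSC4 replicate 1, PSC4 replicate 2 and PSC5 replicate 2 or the controls PSC4 replicate 2 and PSC5 replicate 1. It was also lost when the 3 libraries labelled PSC4 replicate 1 were removed together. The other members not called were Oas2 (-1.54 ± 0.66, adjusted p = 0.0735), Oas3 (-1.47 ± 0.66, adjusted p = 0.0852, and 0.0486 with a replicate block), Zbp1 (-0.33 ± 0.45), Gbp2 (-0.34) and Ifi27 (-0.20 ± 0.19). In Oas2 and Oas3 the PSC5 libraries with neratinib lay inside the control range and the PSC4 libraries lay under it.

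**Figure D5:**
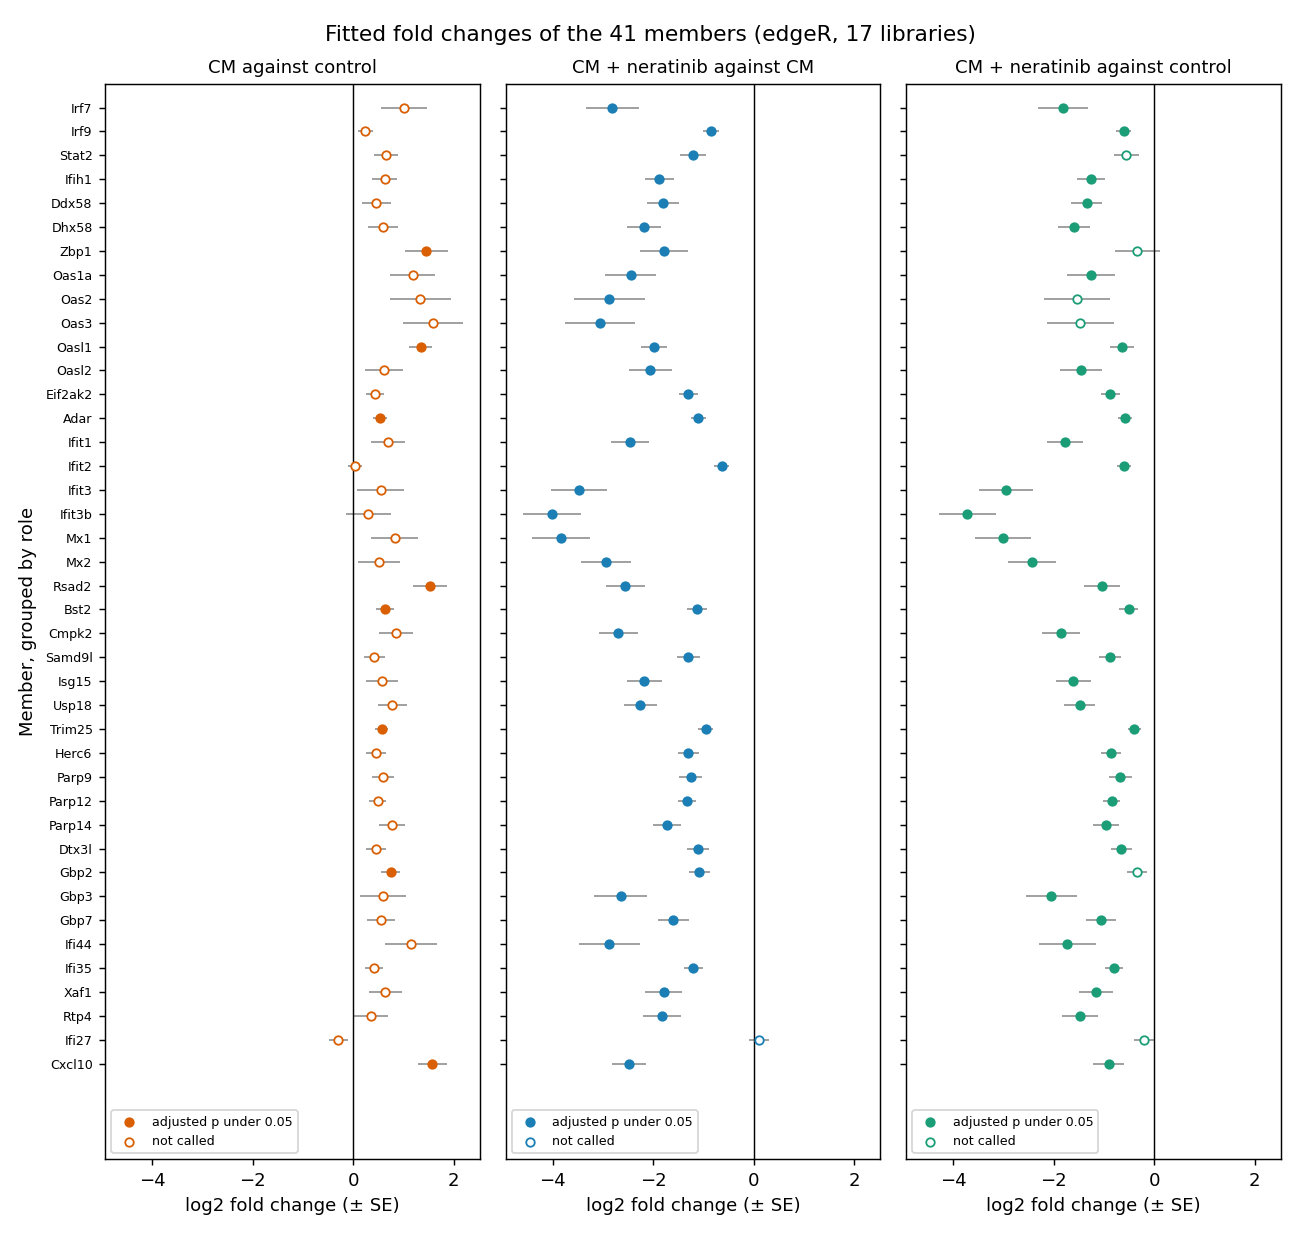
Fitted log2 fold change with its standard error for each member in 3 comparisons, with filled points at an adjusted p under 0.05 and open points otherwise. In the middle panel 40 points are filled and lie left of 0, against 8 filled points right of 0 for CM against control and 35 left of 0 for CM with neratinib against control.

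TGF-beta, used to drive the myofibroblast state, was compared with control in the same genes. It raised 2 members and lowered none, where 19.7% of all genes were called higher and 20.5% lower. The median was 0.06 over the members, between -0.11 and 0.18 under the alternatives, and -0.02 over all genes. Samd9l was at 226, 181, 155 and 190 CPM with TGF-beta (PSC4 replicates 2 and 3, then PSC5 replicates 1 and 2) and at 73.9, 120, 76.7, 108 and 103 CPM in control. The groups did not overlap (0.96 ± 0.21, adjusted p = 0.00235). Oasl1 was at 22.4, 15.1, 15.6 and 17.2 CPM (0.69 ± 0.23, adjusted p = 0.0274), overlapping the highest control library, and its call was lost without any 1 of control PSC4 replicate 1, PSC4 replicate 3, PSC5 replicate 1, PSC5 replicate 2 or TGF-beta PSC4 replicate 2. The call was also lost when the libraries labelled PSC4 replicate 1 were removed together. The count was 1 without control PSC4 replicate 3, PSC5 replicate 1 or PSC5 replicate 2. Without the PSC4 replicate 1 control, removed with its CM counterparts, 1 member was called higher and 1 lower. Over all genes, 5598 were called with all 17 libraries and 6945 in that run. The omissions of control PSC4 replicate 3, PSC5 replicate 1 and PSC5 replicate 2 gave 5093, 4957 and 5053 genes. Mx1 was at 9.24, 3.11, 6.32 and 3.25 CPM with TGF-beta, a range that overlapped control (-1.06 ± 0.49, adjusted p = 0.0983). Isg15 (0.51 ± 0.32) and Cxcl10 (-0.41 ± 0.30) were not called either.

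Against TGF-beta, CM had 13 members higher and 1 lower, where 17.8% of all genes were called higher and 17.5% lower, with a member median of 0.57. The count was 12 without the libraries labelled PSC4 replicate 1 and 5 without the CM library of that label alone. It was 8 without TGF-beta PSC4 replicate 3, 9 without TGF-beta PSC5 replicate 1 and 9 without TGF-beta PSC5 replicate 2. Over all genes, 4916 were called with all 17 libraries. These runs called 5844, 4309, 4079, 4619 and 4438 genes, in the order given. Cxcl10 (1.99 ± 0.32, adjusted p = 0.000242), Mx1 (1.88 ± 0.52, adjusted p = 0.0104) and Gbp2 (0.98) were among those higher, and Ifi27 was the one lower (-0.56 ± 0.20, adjusted p = 0.0387). Cxcl10, Mx1, Gbp2 and Ifi35 were called under every alternative run, and the call of Ifi27 was lost in 8 of 17 alternatives, namely upper-quartile scaling and the omission of CM PSC4 replicate 1, CM PSC5 replicate 1, CM PSC5 replicate 2 or any of the 4 TGF-beta libraries.

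The effect of CM against control was also tested for a difference between the lines, and no member and no gene was called (0%), with 0 members and 43 genes at an unadjusted p under 0.05. The estimate was higher in PSC5 for 5 members, with a median difference of PSC5 to PSC4 of -0.16 (0.004 over all genes). With the PSC4 replicate 1 libraries moved to PSC5, it was higher in PSC5 for 40 members, with a median of 0.62 and 1 member at an unadjusted p under 0.05. The T6 and T8 codes were compared across the 8 libraries with CM, each read against the other libraries of its line and number. No member and no gene was called (0%), and 3 members and 906 genes passed an unadjusted p under 0.05. Those members were Oasl1 (-0.94 ± 0.27), Rsad2 (-1.08 ± 0.34) and Cxcl10 (-0.92 ± 0.32), all lower with T6. The estimate was below 0 for 40 of 41 members, with a median of -0.58 (-0.004 over all genes), and Ifi27 was the exception (0.45 ± 0.23).

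The remaining genes of the pathway were read from lists. Of 12 interferon genes, 8 had no count in any library. Ifnb1, the type I interferon that fibroblasts make first, had 11, 2, 6 and 11 counts in the CM libraries, 0 in all 4 neratinib libraries, at most 2 in a control library and at most 2 with TGF-beta. These counts were too low for a test, and a count of 0 allows up to 3 counts in a library. Ifna4 had at most 9 counts in a library and Ifne at most 3. Ifnz reached 29 counts and was not called in any comparison.

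Of 9 receptor and kinase genes, CM raised 6 against control (7.05% of all genes were called higher), among them the type I receptor genes Ifnar1 (0.36 ± 0.09, adjusted p = 0.0169) and Ifnar2 (0.77 ± 0.13, adjusted p = 0.00206) and the type III receptor subunit gene Il10rb (0.80 ± 0.11, adjusted p = 0.000489). The call of Ifnar1 was lost without CM PSC5 replicate 1. With neratinib 2 of the 9 were lower than with CM, Ifngr2 and Tyk2, and none was higher, where 9.63% of all genes were lower and 10.8% higher. Among further factors and brakes, Irf1 (-0.83 ± 0.15, adjusted p = 0.00242), a factor that also answers interferon gamma, and Irf2 (-0.44 ± 0.09, adjusted p = 0.00502), its antagonist, were lower with neratinib than with CM. The brakes Socs1 and Socs3 were not called there. Of 10 tested genes that induce interferon, 2 were lower and 2 higher with neratinib, against the same shares of all genes. Those higher were Mavs (0.27 ± 0.08, adjusted p = 0.0258), the adaptor of the RNA sensors, and Tlr4 (0.47 ± 0.16, adjusted p = 0.0476), the sensor of bacterial lipopolysaccharide. Tlr3, the endosomal sensor of double-stranded RNA, rose with CM (1.02 ± 0.24, adjusted p = 0.0129) and fell with neratinib (-1.23 ± 0.26, adjusted p = 0.00491). The rise was not called without CM PSC4 replicate 1, nor the fall with only the 2 groups in the model. Cgas, the cytosolic DNA sensor, fell by 0.47 with neratinib (SE 0.07, adjusted p = 0.000472).

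Of 40 further interferon-stimulated genes, 37 were lower with neratinib than with CM, with a median of -1.48, and none was higher (9.63% and 10.8% of all genes). The 3 not called were Ifitm1, Ifitm2 and Plscr1. With the replicate block, Ifitm1 (-2.19, adjusted p = 0.00751) and Ifitm2 (-0.46, adjusted p = 0.0233) were called lower too. In CM against control 12 of the 40 were higher and none was lower (7.05% and 7.14% of all genes). In CM with neratinib against control 25 were lower and 1 was higher (20.9% and 22.2% of all genes). With TGF-beta 11 of the 40 were lower and 1 was higher, where 20.5% of all genes were lower and 19.7% higher, the largest fall being that of Ifitm1 (-3.83 ± 0.79, adjusted p = 0.00137).

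By number of ISRE matches, the median log2 fold change with neratinib was -2.47 over the 7 members with at least 2 matches, -2.04 over the 6 with 1 match and -1.31 over the 18 without a match in the 250 bases. The ranges overlapped. They were -4.02 to -1.13, -3.05 to -1.09 and -2.87 to -0.63. Bst2 had a pair of matches and fell by 1.13, while Irf7 (-2.82) and Ifi44 (-2.87) had none. These medians describe 31 genes, and no test was made of them. The 7 with at least 2 matches include Ifit3 and Ifit3b, whose 104 printed bases are the same and whose separate values are uncertain.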

How the data were processed

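RNA was measured by sequencing of 17 libraries. The deposited values were expected counts per gene identifier, estimated by the authors before deposit, and 74.8% of those above 0 were not whole. Salmon 1.4.0, DESeq 2 and the builds GRCm38 and mm10 are named, per the submitters' processing notes, and the strand setting is not given in the sources used here. The expected counts were rounded to whole numbers. Of the 35896 identifiers, 35437 had a symbol. Genes were filtered with filterByExpr (minimum count 10, total 15), scaled by TMM and fitted in edgeR 4.0.16 (R 4.3.3, quasi-likelihood, group and cell line as terms, all 17 libraries). Adjusted p-values are Benjamini-Hochberg over 13923 genes, calls were made under 0.05, and fold changes carry edgeR standard errors. The biological coefficient of variation was 19.8%. CPM values use TMM-scaled totals. The edgeR procedure was tested on simulated data. Counting error is small at these totals for members with high counts. It is not small for the lowest neratinib libraries of Mx1 (10 counts), Ifit3b (11), Oas3 (11) and Mx2 (17). Floors of 3 counts cover counting error only.

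Libraries of a group differed beyond sampling noise (28 pairs, chi-square per degree of freedom 7.53 to 114). Libraries of the same line and number deviated together from their group means in 22 of 22 pairs of libraries (r above 0.1, median 0.30, lowest 0.12), so the numbers were taken to pair the samples, on the evidence of the data. Libraries of the same line with other numbers had a median of -0.08, but 14 of these 32 pairs were above 0.1, the highest at 0.61. The main fit held no term for the pairing, which entered only in the alternative with a block of line and number. Alternatives were upper-quartile factors, no filter, a block of line and number, DESeq2 1.42.0, only the 2 groups compared, Ifit3 and Ifit3b summed, Oas1a and Oas1g summed (added after seeing the data), the libraries labelled PSC4 replicate 1 removed or counted with PSC5, and each library left out. The named genes were all 41 members, with library values for the 8 most changed in CM with neratinib against CM, the 4 most changed in each comparison with control, the factors, Cxcl10, Isg15 and Usp18. A further gene covered by this rule is not reported here. Library values of Ifi27 were added after they were seen. The members and lists were chosen with earlier results of these data known.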

Additional observations from a re-analysis of the deposited data

Results flagged for a closer look

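In 3 of 164 sets of 4 or 5 libraries, a member in a group, the highest library stood apart from the others by Dixon's criterion (1.83%), where chance gives about 1 in 20. Cxcl10 in CM with neratinib was 56.3 CPM in PSC5 replicate 1, and the next library was 21.4 CPM. With TGF-beta, PSC4 replicate 2 was the high library for the other 2. Ifit1 stood there at 174 CPM, with the next at 108 CPM. Oasl2 stood there at 305 CPM, with the next at 229 CPM. No difference of an effect between the cell lines passed the adjusted test.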

How the results depend on the processing

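Of the 5 member medians, that of TGF-beta against control changed sign among the alternatives (-0.11 to 0.18), and the other 4 kept theirs. The count for CM with neratinib against CM was 33 to 40 (39 to 40 with single libraries left out), and 33 of its 40 calls were made under every alternative. Over all genes this comparison had 2850 calls with all 17 libraries. The alternatives gave 602 (only the 2 groups) to 4563 (replicate block), and single omissions gave 1748 to 3685. For CM with neratinib against control, the count was 26 to 39 with single libraries left out, lowest without the neratinib library of PSC4 replicate 1, and 25 of 35 calls were made throughout. All-gene calls in those runs were 4952 to 6258, against 5998 with all 17 libraries. With only the 2 groups in the model, 22 members were called in CM against control, 8 in TGF-beta against control (6 higher, 2 lower) and 25 in CM against TGF-beta. DESeq2 called 13 in CM against control. Leaving out single libraries gave 3 to 9 calls in CM against control, 1 to 3 in TGF-beta against control and 5 to 16 in CM against TGF-beta. Over all genes and in that order of comparisons, all 17 libraries gave 1976, 5598 and 4916 calls. The 2-group models gave 2764, 5941 and 4616, and single omissions gave 801 to 1793, 4750 to 5516 and 4079 to 4619. DESeq2 gave 2695 in CM against control. The cause of these moves was not tested.

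With the replicate block of line and number, the counts were 10, 40, 36, 3 and 15 for CM against control, CM with neratinib against CM and against control, TGF-beta against control and CM against TGF-beta. Over all genes the block called 3240, 4563, 7300, 7091 and 6039, against 1976, 2850, 5998, 5598 and 4916 without it. In CM against TGF-beta, Oas3 (1.21, adjusted p = 0.146) and Oasl1 (0.65, adjusted p = 0.0625) were lost. Ifit2 (0.44, adjusted p = 0.0227), Stat2 (0.76, adjusted p = 0.0281) and Zbp1 (1.29, adjusted p = 0.0381) were gained there. In TGF-beta against control Ifit2 was gained (-0.36, adjusted p = 0.0307).

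Among the called members and the further genes followed under the alternatives, signs turned only in estimates that were not called. Not every gene and comparison named in the text was followed in this way. Ifit3b in CM against control was -0.053 without the libraries labelled PSC4 replicate 1 and -0.012 to 0.50 with single libraries left out. Ifi27 was 0.017 in CM with neratinib against control without those 3 libraries. In CM with neratinib against CM, Ifi27 was -0.080 to 0.28 with single libraries left out, and -0.05 without CM PSC5 replicate 1. Zbp1 in CM with neratinib against control was -0.95 to 0.072, above 0 without the neratinib library of PSC4 replicate 1. When Oas1a and Oas1g were summed, the call of Oas1a against control was lost.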

Other observations

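In TGF-beta against control, the 11 further interferon-stimulated genes that fell were Ifitm1, Ifitm2, Ifi203, Ifi204, Lgals9, Psmb9, Psmb10, Nlrc5, Pml, Trex1 and Epsti1. That is 11 of 40, where 20.5% of all genes were lower. Of the 3 immunoproteasome subunit genes, Psmb9 (log2 fold change -1.33 ± 0.32, adjusted p = 0.00375) and Psmb10 (-0.51 ± 0.15, adjusted p = 0.0125) fell, whereas Psmb8 was not called (-0.79 ± 0.34, adjusted p = 0.0806). The log2 fold change was -1.34 for Ifi203 and -1.22 for Ifi204, which encode DNA-binding proteins. Slfn2, a schlafen gene tied to quiescence of immune cells, was the only one of the 40 that rose (1.04 ± 0.28, adjusted p = 0.0084).

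Of 9 tested factors and brakes outside the 41 members, TGF-beta lowered 5, where 20.5% of all genes were lower. They were the factors Irf5 (-1.73 ± 0.23, adjusted p = 3.41e-05), Irf2 (-0.69 ± 0.09, adjusted p = 3.18e-05) and Irf1 (-0.52 ± 0.15, adjusted p = 0.00999), and the brakes Socs3 (-0.80 ± 0.19, adjusted p = 0.00416) and Socs1 (-0.63 ± 0.17, adjusted p = 0.00756). Irf3, Pias1 and Ptpn2 were among those not called.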
